A study of Mus musculus with 6 samples.

Results

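The genes described here build and load the primary cilium, the single antenna-like organelle that most epithelial cells of the nephron carry on their luminal side. They were chosen by name on the array: the Ift genes, the Bbs genes with Ttc8, Mkks and Lztfl1, the GTPases Arl3, Arl6 and Arl13b, further transport subunits, the motor genes Kif3a, Kif3b, Kif17 and Dync2h1, genes of the transition zone such as Tmem67 and Cep290, and Pkd1, Pkd2 and Pkhd1. These names matched 105 probes of 46 genes among 56470 probes of the array, and 76 probes of 45 genes were bright enough to be compared. The set was chosen with measured values of this same contrast in view, so the member values are a description and carry no test of their own.

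The arrays measured RNA of the renal cortex of male mice aged 16 weeks, with 1 array per mouse and 3 arrays per group. One group was labelled with the genotype db/m and the other with db/db, and the db/db genotype is a leptin receptor mutation in all cells of the mouse, on the C57BLKS/J strain in the study. The labels also name 8 weeks of treatment with Huangqi decoction (HQD), a herbal extract, and both the design text and the methods of the study describe the arrays as treated against non-treated db/db mice. The labels and the methods therefore differ on what the groups are, the groups are called labelled db/m and labelled db/db throughout, and differences are given on the log2 scale as the db/m-labelled mean minus the db/db-labelled mean. No dose of HQD is named for these arrays. P-values measure only the spread between these 6 samples.

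A cilium has no ribosomes, so its proteins are carried in and out along microtubules by intraflagellar transport (IFT). The IFT-B complex travels outwards with kinesin-2, the IFT-A complex returns with the dynein motor of Dync2h1, and the BBSome, an octameric coat recruited by Arl6, links membrane receptors to these trains for export. Lztfl1 and the small GTPase Ift27 govern how the BBSome enters and leaves the cilium. In the kidney the polycystins Pkd1 and Pkd2 and the fibrocystin gene Pkhd1 act at the cilium and their loss gives polycystic disease, whereas loss of BBSome genes gives Bardet-Biedl syndrome with obesity.

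Most of the transport machinery had close to the same signal in both groups. Across the 76 probes the median difference was -0.01, against -0.03 over all 29890 tested probes, with 40 probes lower and 36 higher in labelled db/m. The differences ranged from -0.50 for a probe of Tulp3, an adaptor that brings receptors to IFT-A, to 1.01 for a probe of Lztfl1 that was at background in labelled db/db. In limma, 3 member probes had an unadjusted p under 0.05 and were lower, beside 10.8% of all tested probes, and 5 were higher, beside 6.9% of all. No member had an adjusted p under 0.05, and the smallest was 0.240. The limma count over all 29890 tested probes was also 0, with 3221 lower and 2061 higher at an unadjusted p under 0.05, and the methods' t-test gave 0 as well. The groups did not overlap for 9 member probes that were lower, beside 16.4% of all probes, and for 8 that were higher, beside 7.75% of all. Since the arrays measure bulk cortex, fewer cells of a type and less RNA per cell cannot be told apart.

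**Figure D1:**
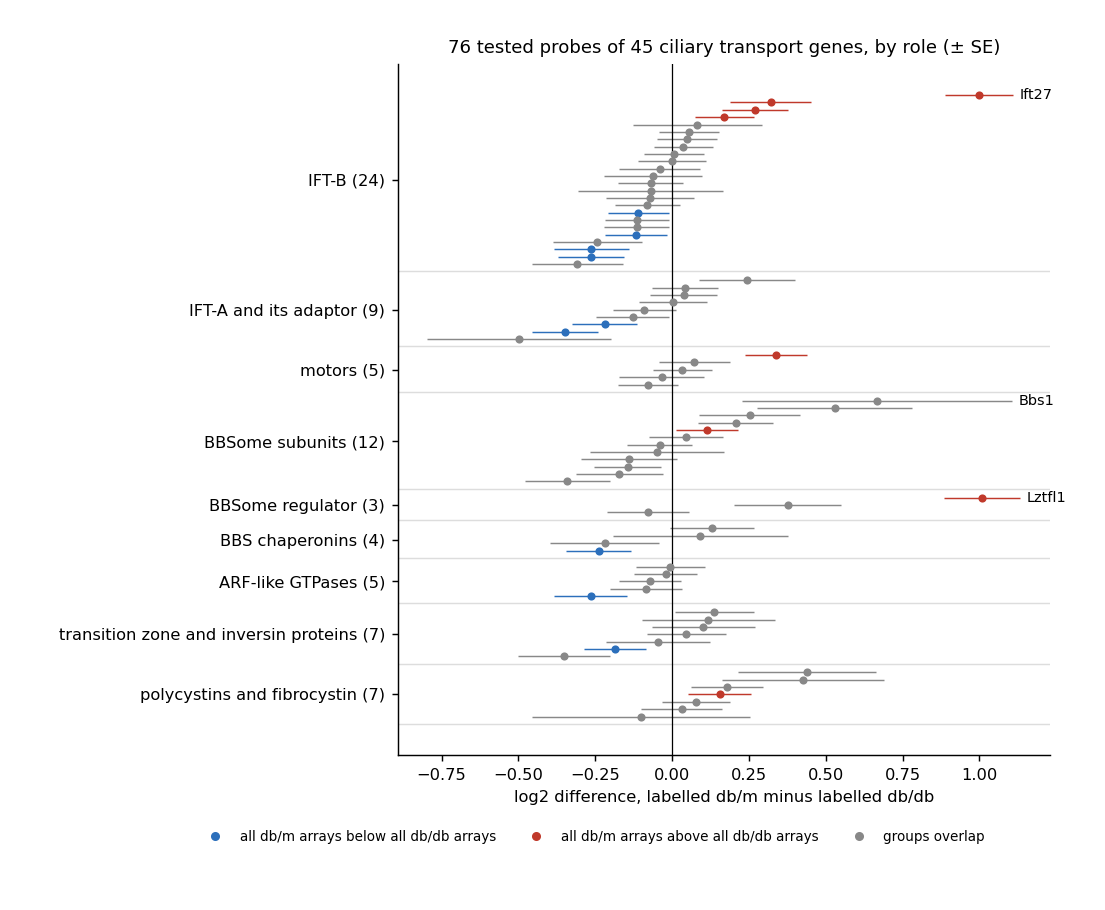
Each point is a tested probe of a ciliary transport gene, placed by its log2 difference (labelled db/m minus labelled db/db, 3 arrays each) with its limma standard error, and grouped by role with the number of probes in brackets. Most points lie within 0.4 of 0, and the probes of Ift27 and Lztfl1 lie at about 1, the latter with labelled db/db arrays at background, where its lower bound is 0.43.

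The measured difference was about 1 for a pair of probes, the most extreme of the 76, from Ift27 and Lztfl1. The Lztfl1 probe was at background in labelled db/db, with a lower bound of 0.43. Both genes act on the BBSome, but their RefSeq probes differed by -0.12 and -0.08, and the 12 BBSome subunit probes had a median of 0.00. The probe A_55_P2731026 of Ift27, designed to the transcript AK044278, lies at chr15:77994465-77994524 on the minus strand (mm9). Its log2 signals, relative to the 75th percentile of each array, were -1.19, -1.12 and -1.04 on the labelled db/m arrays and -2.23, -2.01 and -2.11 on the labelled db/db arrays. All 3 labelled db/m arrays were above all 3 labelled db/db arrays, and the probe was well above background on all 6 arrays. The difference was 1.0 (SE 0.11, n = 3 per group), which is a fold of 2.0 with a 95% interval from 1.66 to 2.40. The pair of arrays that shared a slide, 1 of each label, differed by 0.92.

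The other probe of Ift27, A_51_P474422, was designed to the RefSeq mRNA and lies 4555 bases away at chr15:77989910-77989969 on the same strand. It read 3.13, 3.21 and 3.14 on the labelled db/m arrays and 3.27, 3.35 and 3.21 on the labelled db/db arrays. Here the labelled db/m arrays were slightly below the others, by -0.12 with a 95% interval from -0.36 to 0.12. Within each array, the difference between both probes was therefore shifted by 1.12 between the groups, with SDs of 0.08 and 0.09 among the arrays of a group. The first 30 of the 60 bases of each probe are shown, since the opposite readings belong to different stretches of the same locus.
Ift27, AK044278: atgcaaaatctaaattagaaccgatgctca
Ift27, RefSeq mRNA: ttttcaggagacagaagacgggatcacctg
Both probes hold the same share of G and C, at 45%. No annotation of the mm9 build was used here, so that exon, intron or UTR positions are not given for any probe.

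Lztfl1, the regulator that restrains BBSome entry into the cilium, had the same arrangement. The probe A_51_P350562, designed to the transcript ENSMUST00000165754 at chr9:123603937-123603996 on the minus strand, read -3.56, -3.55 and -3.54 on the labelled db/m arrays. On the labelled db/db arrays it read -4.70, -4.62 and -4.36 and was not well above background on any of them. The groups did not overlap, and the measured difference was 1.01 (SE 0.12, n = 3 per group). With the dim arrays set to the lowest signal above background on each, the labelled db/m signal was at least 1.34-fold higher, a difference of 0.43. The probe entered the comparison only through the group where it was brighter, so the measured 1.01 is no estimate of size. It was also the 1 member among the 0.783% of tested probes with a measured difference of 1 or more and an unadjusted p under 0.05, and at the bound it would not be.

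The RefSeq probe of Lztfl1, A_51_P425833, lies 4916 bases away and read 1.86, 2.08 and 1.95 on the labelled db/m arrays and 2.0, 2.24 and 1.87 on the labelled db/db arrays. These groups overlapped, with a difference of -0.08 and a 95% interval from -0.40 to 0.24. Another probe, A_55_P2721708, was above background on all 3 labelled db/m arrays and on 1 labelled db/db array. It differed by 0.38 (SE 0.18), or 0.23 with dim arrays at the lowest signal above background. Its arrays read -3.65, -3.73 and -3.69 in labelled db/m and -4.14, -3.70 and -4.35 in labelled db/db, so that the groups overlapped. The first 30 bases of the 3 probes are shown for the same reason as those of Ift27.
Lztfl1, ENSMUST00000165754: ttttgctttagataattattacattttcct
Lztfl1, RefSeq mRNA: gaagagccatccttttgcgttagtgagtga
Lztfl1, ENSMUST00000172067: cagcttagctttaaacctgttatgcgtagt
The probe with the difference of 1.01 was rich in A and T, at 23.3% G and C, against 38.3% for the RefSeq probe and 35.0% for A_55_P2721708.

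**Figure D2:**
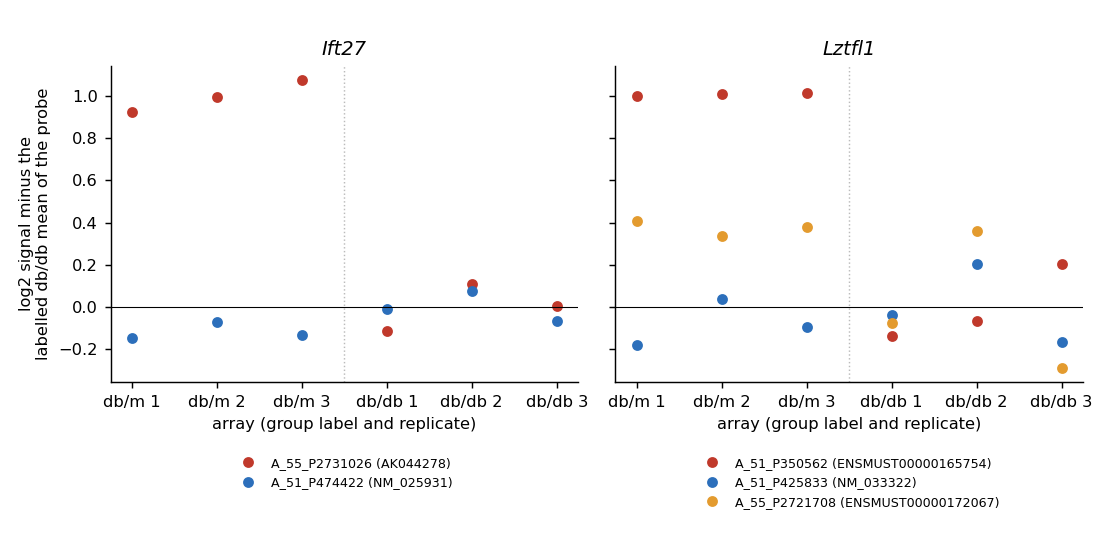
Points are the log2 signals of the probes of Ift27 (left) and Lztfl1 (right) on each of the 6 arrays, minus the mean of the same probe over the labelled db/db arrays, with the dotted line between the groups. The red probes sit about 1 higher on every labelled db/m array, whereas the blue RefSeq probes of the same genes stay near 0. For the red Lztfl1 probe the labelled db/db signals were at background, and the lower bound of its difference is 0.43. The orange Lztfl1 probe, A_55_P2721708, has overlapping groups.

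The promoters of these genes were read because the ciliary genes share a known control element, the X-box bound by RFX factors. Promoter windows of 300 bases, from 250 before to 50 after the transcription start, came from RefSeq (GRCm38.p6) and were matched for 40 of 46 genes. The X-box was searched as an inverted pair of half-sites, GTTNCC and GGNAAC, with 0 to 3 bases between them, which reads the same on both strands. A pair stood in 3 of 40 member genes (7.5%), against 253 of 27025 genes with a window (0.936%). The single half-site GTTGCC, on either strand and counted also inside pairs, stood in 16 of 40 genes (40.0%), against 3821 of all genes (14.1%). These are matches of letters and not measured binding.

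Lztfl1 held 2 such pairs, and Ift57 (an IFT-B subunit) and Bbs7 (a BBSome subunit) held 1 each. They are shown with the pair in capitals, because Lztfl1 is a gene whose probes disagreed and the others are members with the same element and differences of -0.08 and -0.05.
Lztfl1, chr9:123717756-123717815, minus strand, 190 to 131 bases before the start: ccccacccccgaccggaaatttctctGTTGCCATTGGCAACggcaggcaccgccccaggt
Lztfl1, chr9:123717598-123717627, minus strand, from 2 bases before the start: gtgtctccGTTCCCATTGGCAACgcgcggc
Ift57, chr16:49699209-49699268, plus strand, 85 to 26 bases before the start: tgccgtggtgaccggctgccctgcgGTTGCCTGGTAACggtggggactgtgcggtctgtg
Bbs7, chr3:36613475-36613534, minus strand, 145 to 86 bases before the start: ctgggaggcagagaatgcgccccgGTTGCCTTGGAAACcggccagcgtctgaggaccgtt
Ift27 held a half-site, in capitals, beginning 9 bases before its start.
Ift27, chr15:78174082-78174136, minus strand, 55 to 1 bases before the start: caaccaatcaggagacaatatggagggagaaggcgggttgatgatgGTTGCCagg
The windows lie at RefSeq starts, and the starts of the other transcripts, to which the differing probes were designed, were not looked up. The part of the motif in the differences was not tested. Of 6 listed genes of the RFX factors, 4 were tested, and 0 had an unadjusted p under 0.05 in limma, beside 9.18% lower and 6.69% higher among 20465 genes. The 4 differed by 0.22 (Rfx3), 0.16 (Rfx7), 0.14 (Rfx1) and -0.14 (Rfx5). Rfx3 and Rfx1 were higher without overlap, beside 1490 of the 20465 genes, and the groups overlapped for Rfx7 and Rfx5.

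Probes of the same gene also differed in sign beyond these 2 genes. Of 23 genes with at least 2 tested probes, 13 had probes of both signs. Some of these lay near 0, such as Ift172 at -0.07 and 0.01. The share among all genes of the array was not computed, so the count is not a trait of these genes. Ift46, an IFT-B core subunit, had 4 tested probes. The brightest, A_55_P1971956, read 2.91, 3.22 and 3.04 on the labelled db/m arrays and 3.29, 3.40 and 3.27 on the labelled db/db arrays, a difference of -0.26 (SE 0.12) with no overlap. The probe A_52_P217796 of the same RefSeq mRNA read -3.05, -3.23 and -2.98 against -3.60, -3.29 and -3.34, a difference of 0.32 (SE 0.13) in the opposite direction and again with no overlap. The probe A_66_P134449 read -0.08, 0.18 and 0.40 against 0.47, 0.56 and 0.39, an overlapping difference of -0.31 (SE 0.15). The last, A_55_P2713745, read -2.87, -2.80 and -2.82 against -2.66, -2.71 and -2.78, lower by -0.11 (SE 0.10) without overlap.

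Tulp3 also had probes on both sides of 0. Its RefSeq probe A_51_P437608 read 0.63, 0.80 and 0.59 on the labelled db/m arrays and 1.0, 1.07 and 0.98 on the labelled db/db arrays. Every labelled db/m array was below every labelled db/db array, with a difference of -0.35 (SE 0.11), and the pair on a shared slide differed by -0.35 too. The other Tulp3 probes had overlapping groups, and their shared-slide pairs ran against the group differences. A_55_P2716969 read -2.75, -2.71 and -3.57 against -2.20, -2.36 and -2.98, a difference of -0.50 (SE 0.30), with the pair at 0.23. A_55_P2716968 read -2.10, -1.99 and -1.95 against -2.41, -2.42 and -1.95, a difference of 0.24 (SE 0.16), with the pair at -0.15.

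**Figure D3:**
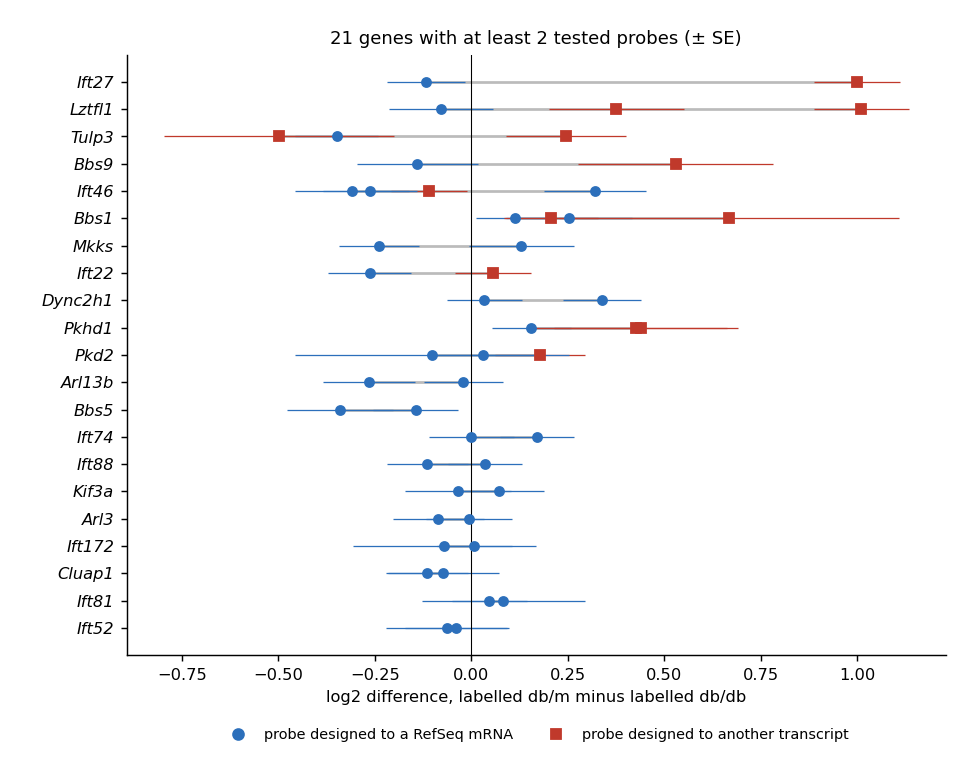
Rows are 21 genes with at least 2 tested probes, each point the log2 difference (labelled db/m minus labelled db/db) of a probe with its standard error, and the grey line their range. Red squares, the probes designed to a transcript other than a RefSeq mRNA, lie to the right of the blue RefSeq probes in most rows that hold both, and Ift27 and Lztfl1 have the widest ranges.

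The type of transcript a probe was designed to went with its direction. The 63 member probes on a RefSeq mRNA had a median difference of -0.05, with 38 lower and 25 higher. Over all 19674 such probes 12024 were lower and 7650 higher. The 13 probes on other transcripts, from 9 genes, had a median of 0.38. Of them 11 were higher, beside 6239 of all 10216 tested probes that matched no RefSeq mRNA. Of these 13, 3 probes of Lztfl1 and Bbs1 passed the filter only through labelled db/m, and with dim arrays at the lowest signal above background the median was 0.24. In limma, 2 of the 13 were higher at an unadjusted p under 0.05, beside 11.6% of all 10216 tested probes that matched no RefSeq mRNA. Over the whole array the same classes had medians of -0.07 and 0.10, so that the classes differed in the same direction among all genes. This grouping was made after the values had been seen. Among the 13, Bbs9 differed by 0.53 (SE 0.25) and Bbs1 by 0.21 and 0.67 (SE 0.44), while their RefSeq probes differed by 0.11, 0.25 and -0.14. The Bbs1 probe at 0.67 was above background on 1 labelled db/db array, was 0.44 with dim arrays at the lowest signal above background, and differed by -0.76 in the shared-slide pair. Both genes encode BBSome subunits, and these groups overlapped except for the RefSeq probe of Bbs1 at 0.11.

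Differences also moved with brightness. With all tested probes split by signal into 4 equal bins, the median difference was 0.16 in the dimmest bin and -0.14 in the brightest. The member probes followed with medians of 0.23, 0.06, -0.04 and -0.08 from the dimmest to the brightest bin, beside 0.16, 0.04, -0.06 and -0.14 for all probes. Most of the 13 member probes on other transcripts lay in the dimmest bin. In that bin, all 3990 tested probes that matched no RefSeq mRNA had a median of 0.22, and 2893 of them were higher. The Ift27 probe of AK044278 lay in the bin next to the dimmest and the Lztfl1 probe in the dimmest. The part of brightness or transcript type in their differences was not tested. The median SD among arrays of a group was 0.118 for member probes and 0.185 for all, and it was smaller for members in each bin, from 0.209 against 0.290 in the dimmest to 0.093 against 0.135 in the brightest.

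**Figure D4:**
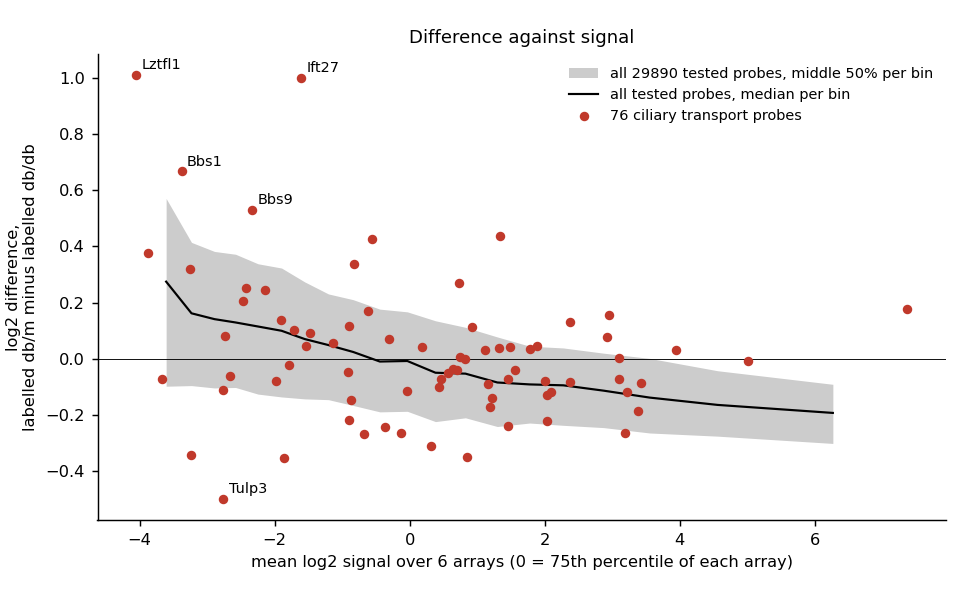
Red points are the 76 member probes, by mean log2 signal over 6 arrays (horizontal) and log2 difference, labelled db/m minus labelled db/db (vertical). The black line and grey band give the median and middle 50% of all 29890 tested probes in bins of signal, and most members lie along the band, with Ift27 far above it and Lztfl1 also above it at its measured value, which includes signals at background.

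Among the IFT-B genes, which form the outward train, 24 probes of 13 genes had a median of -0.07, with 15 lower and 9 higher. The split turned to 9 lower and 15 higher (median 0.03) with the slide as a block. That fit compares the labels only through the pair of arrays that shared a slide. With median centring the split was 21 and 3 (median -0.25), where the median of all probes was -0.21. Ift88, whose loss removes cilia and gives cystic kidneys, read -0.17, 0.00 and -0.11 on the labelled db/m arrays and 0.08, -0.04 and 0.01 on the labelled db/db arrays on 1 probe, which overlapped and differed by -0.11 (95% interval -0.36 to 0.13). Its other probe read 1.78, 1.8 and 1.83 against 1.74, 1.81 and 1.75, an overlapping difference of 0.04 (95% interval -0.19 to 0.26). Ift80 read 0.95, 0.78 and 0.87 on the labelled db/m arrays and 0.50, 0.64 and 0.65 on the labelled db/db arrays. It was higher on every labelled db/m array, by 0.27 (SE 0.11). Ift22 read -0.20, -0.23 and -0.37 against 0.08, -0.01 and -0.08, a difference of -0.26 (SE 0.11) with no overlap. A further Ift22 probe, on another transcript, read -1.12, -1.11 and -1.09 against -1.19, -1.08 and -1.2, an overlapping difference of 0.06. Ift74, which binds tubulin together with Ift81, read -0.50, -0.57 and -0.51 against -0.71, -0.68 and -0.71, a difference of 0.17 (SE 0.10) without overlap. Its other probe differed by 0.00, and both Ift81 probes lay between 0.05 and 0.08. Ift20, Ift52, Ift57, Ift172 and Cluap1 lay between -0.12 and 0.01.

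The IFT-A genes and Tulp3, the returning train and its adaptor, gave a median of -0.09 over 9 probes. Ift140, a core subunit, read 1.92, 1.90 and 1.94 on the labelled db/m arrays and 2.21, 2.20 and 2.02 on the labelled db/db arrays. The labelled db/m arrays were lower without overlap, by -0.22 (SE 0.10), although the pair on the shared slide differed by only -0.10. Ift122, Wdr19, Wdr35, Ift43 and Ttc21b lay between -0.13 and 0.04.

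Of the motors, Dync2h1, the heavy chain that drives the return, read -0.67, -0.62 and -0.69 on the labelled db/m arrays and -1.0, -1.07 and -0.92 on the labelled db/db arrays. That probe was higher on every labelled db/m array, by 0.34 (SE 0.10), whereas the second tested Dync2h1 probe differed by 0.03. The kinesin-2 genes Kif3a and Kif3b lay between -0.08 and 0.07. Kif17, a further ciliary kinesin, had 3 probes, of which 0 were above background on all 3 arrays of a group, so it was not compared.

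The BBSome subunits had a median of 0.00 over 12 probes of 7 genes, with 6 on each side. Bbs5, the subunit that binds phosphoinositides, differed by -0.34 (SE 0.14) on a dim probe with overlapping groups and by -0.14 on its brighter probe. Bbs2, Bbs4, Bbs7 and Ttc8 lay between -0.17 and 0.04. Among the chaperonin-like genes that help assemble the BBSome, a probe of Mkks read 1.39, 1.35 and 1.29 against 1.55, 1.69 and 1.51, lower by -0.24 (SE 0.10) without overlap, and the other Mkks probe differed by 0.13. Bbs10 differed by 0.09 (SE 0.29) and Bbs12 by -0.22 (SE 0.18).

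All 5 probes of the ARF-like GTPases were lower in labelled db/m, with a median of -0.07, but 3 of the 5 were higher after quantile normalization. Arl6, which recruits the BBSome, read 1.41, 1.45 and 1.40 against 1.46, 1.58 and 1.44, an overlapping difference of -0.07 with a 95% interval from -0.31 to 0.17. Arl13b, a marker of the ciliary membrane, read -0.69, -0.90 and -0.84 against -0.63, -0.60 and -0.40 on 1 probe. That probe did not overlap and differed by -0.27 (SE 0.12), and its other probe differed by -0.02.

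At the transition zone, the gate at the base of the cilium, 7 probes of 5 genes had a median of 0.05, which turned to -0.04 after quantile normalization. Cep290, a structural protein of the gate, differed by 0.14 (SE 0.13) and the membrane protein gene Tmem67 by 0.05 (SE 0.13), and both had overlapping groups.

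The cyst genes were higher in 6 of 7 probes from 3 genes, beside 13889 of all 29890 probes, with a median of 0.16. The median became -0.03 with median centring, where all probes shifted down, and 0.25 after quantile normalization. There 6 of 7 stayed higher, 2 with an unadjusted p under 0.05 in limma, beside 5.16% of all probes. Pkd1, the large receptor-like polycystin, read 3.03, 2.91 and 2.96 on the labelled db/m arrays and 2.95, 2.96 and 2.76 on the labelled db/db arrays. The groups overlapped, with a difference of 0.08 and a 95% interval from -0.19 to 0.34. Pkd2, its channel partner, had 3 tested probes, each with overlap. They read 7.42, 7.54 and 7.43 against 7.26, 7.16 and 7.43 (difference 0.18), 4.02, 4.03 and 3.84 against 3.74, 4.08 and 3.99 (0.03), and 0.48, 0.90 and -0.23 against 0.06, 1.06 and 0.34 (-0.10). Pkhd1 had its RefSeq probe at 3.13, 2.96 and 2.99 against 2.83, 2.88 and 2.89, higher without overlap by 0.16 (95% interval -0.09 to 0.40). Its probes on other transcripts differed by 0.44 (SE 0.22) and 0.43 (SE 0.26) and had overlapping groups, because labelled db/m replicate 2 read 1.1 and -0.89 there while the other labelled db/m arrays read at least 1.75 and -0.12.

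Genes of the same pathway outside the name rule were taken from lists of textbook partners. Of 95 such genes 85 were tested, each by its brightest probe, with a median difference of -0.03. In limma, 6 were lower and 2 higher at an unadjusted p under 0.05, beside 9.18% lower and 6.69% higher of 20465 genes, and 0 had an adjusted p under 0.05.

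The remaining parts of the transport machinery held 5 of the 6 lower genes. Of 20 tested genes 17 were lower, beside 52.6% of all genes by brightest probe. Their median was -0.16, beside -0.02 for all genes. After quantile normalization it was -0.10, where the median of all probes was -0.01. With median centring it was -0.35, where all probes shifted to a median of -0.21. Dync2li1, the light intermediate chain that works with Dync2h1, read 0.29, 0.36 and 0.20 on the labelled db/m arrays and 0.68, 0.70 and 0.64 on the labelled db/db arrays. The groups were far apart relative to their spread, with a difference of -0.38 (SE 0.10, limma adjusted p = 0.24). Rp2, which acts on Arl3, differed by -0.53 (SE 0.17) and Tctex1d2, a dynein-2 light chain, by -0.32 (SE 0.12). Rab3ip, the activator of the GTPase Rab8, differed by -0.31 (SE 0.11) and Hspb11, the IFT-B subunit IFT25, by -0.28 (SE 0.10). The groups of these genes did not overlap either. IFT25 is the direct binding partner of Ift27, whose RefSeq probe differed by -0.12. With the slide as a block 0 of the 5 had an unadjusted p under 0.05. That fit compares the labels only through the pair of arrays that shared a slide, so it cannot decide whether these differences depend on the slide.

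Of 30 further transition zone and appendage genes, Anks6, a partner of the inversin compartment, was lower by -0.37 (SE 0.13). Of 13 tested Hedgehog genes, the pathway read through the cilium, Cdon, a co-receptor, was higher by 0.54 (SE 0.20) with overlapping groups, and of 18 further cyst-related genes Pkd2l2, a polycystin-like channel, was measured at 0.70 (SE 0.21) above labelled db/db. Pkd2l2 was above background on 2 of 3 labelled db/db arrays and was 0.55 with dim arrays at the lowest signal above background. With the filter on all 6 arrays 0 of 17 of those genes were higher at an unadjusted p under 0.05.

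**Figure D5:**
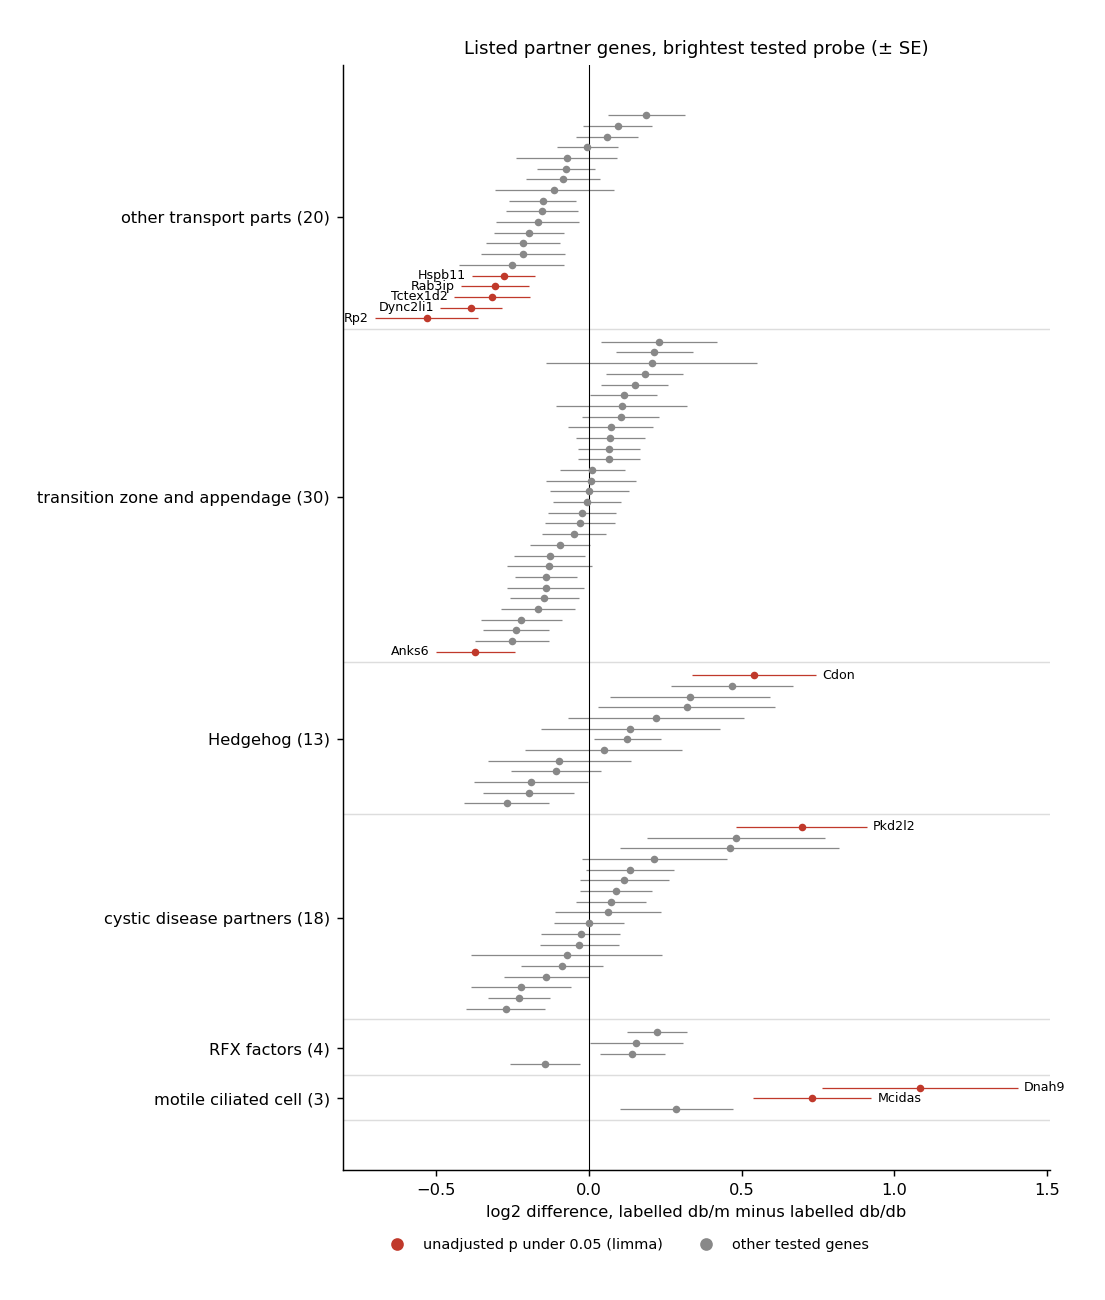
Each point is a listed gene outside the name rule, by the log2 difference of its brightest tested probe (labelled db/m minus labelled db/db) with its standard error, and grouped by list with the number tested in brackets. Red genes had an unadjusted limma p under 0.05: 5 transport genes and Anks6 lie to the left, and Cdon, Pkd2l2, Dnah9 and Mcidas to the right, of which Pkd2l2 and Dnah9 were at background on some labelled db/db arrays.

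Cells with motile cilia use the same trains, and most of their markers were at background. Of 9 markers, 6, among them the master regulator Foxj1, stayed at background on all 6 arrays, and 3 were tested. Mcidas, a regulator of multiciliated cells, was the bright one, at 4.70, 3.99 and 4.21 on the labelled db/m arrays and 3.63, 3.44 and 3.63 on the labelled db/db arrays. It was higher on every labelled db/m array, by 0.73 (SE 0.19). Dnah9, a dynein arm chain, read -3.46, -2.88 and -3.02 against -4.30, -4.77 and -3.54, and only 1 of the labelled db/db arrays was above background. Its measured difference of 1.08 became 0.61 with dim arrays at the lowest signal above background. Rsph1 was above background on 2 labelled db/db arrays and differed by 0.29. The summed signal of the 3, in multiples of the 75th percentile, ran from 16.1 to 26.2 in labelled db/m and from 11.0 to 12.6 in labelled db/db. Nearly all of it was Mcidas, at 15.9 to 25.9 and 10.9 to 12.4, while Dnah9 and Rsph1 together gave 0.240 to 0.254 and 0.124 to 0.194. The part of such cells in the ciliary differences was not tested.

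The tissue was checked with nephron markers. All 6 proximal tubule markers, 4 of 4 for the thick limb, 5 of 5 for principal cells and 4 of 4 for podocytes were above background. The proximal tubule markers were all lower in labelled db/m, with a median of -0.36, of which Slc22a8 (-0.56) had an unadjusted p under 0.05, and their summed signal ran from 504 to 865 in labelled db/m and from 777 to 925 in labelled db/db. Among markers of other cells with an unadjusted p under 0.05, Slc12a3 of the distal convoluted tubule differed by -0.91, Slc26a4, Atp6v0d2 and Hsd11b2 of the collecting duct by -0.53, -0.30 and -0.41, and the leukocyte genes Ptprc and Itgam by 0.55 and 0.70, while Cd74 differed by -0.45. The other markers of the distal convoluted tubule, Pvalb and Trpm6, differed by -0.03 and -0.19 with overlapping groups. The summed signal of its 3 markers overlapped too, at 23.8 to 42.5 in labelled db/m and 31.6 to 40.0 in labelled db/db. The collecting duct markers went both ways, with Aqp2, Avpr2 and Slc4a1 at 0.48, 0.46 and 0.35 and no p under 0.05. Of 5 principal cell markers 3 were lower and 2 higher, and of 5 intercalated cell markers 4 were lower and 1 higher. The summed signal of the intercalated cell markers ran from 30.6 to 32.4 in labelled db/m and from 36.1 to 39.5 in labelled db/db, without overlap. That of the principal cell markers overlapped, at 37.6 to 54.6 and 36.9 to 46.2. The part of these cell types in the ciliary values was not tested. Between 51.6% and 59.0% of all probes were well above background on an array, and between 74 and 80 of the 105 member probes were. Labelled db/db replicate 2 gave the highest value for 24 of the 76 tested member probes.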

How the data were processed

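The scanner files held, per the file headers, the intensity of each spot on 1-colour Agilent arrays, which the authors had processed with Agilent Feature Extraction 10.7.1.1 (background and spatial trend removed, no scaling between arrays). A table of log2 values deposited by the authors served as an alternative. Control spots and 135 probes with outlier flags were left out, spots of a probe were averaged, log2 was taken and the 75th percentile of each array subtracted. Tests were run on the 29890 probes that exceeded background clearly on every array of 1 group or of both. Groups were compared in R 4.3.3 with limma 3.58.1 (lmFit, eBayes) across all of them, with Benjamini-Hochberg adjustment. The files use mm9 coordinates. Members and lists were chosen with earlier results of these data known. Values per array are given for the 6 non-overlapping member probes with the largest difference in each direction, genes whose probes disagree with at least 1 unadjusted p under 0.05, and Pkd1, Pkd2, Pkhd1, Lztfl1, Arl6 and Ift88. Partner genes are named at an unadjusted p under 0.05. Other members (Bbs1, Bbs9 and more), the RFX genes, and a few markers are named outside that rule, after their values were seen. Some members are not reported here and stay in the counts and medians.

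In data simulated for this contrast with 29890 probes, 91% of 200 probes changed by 1 on the log2 scale had a p under 0.05 and 36% an adjusted p under 0.05. Precision is limited by the number of arrays, 3 against 3. An exact permutation test of 3 against 3 cannot give a two-sided p below 0.1. The arrays lay on 3 slides: 1 slide held 1 array of each label and the others held a single label each. Alternatives covered scaling, background correction, dim probes, variance model, blocks, single arrays and the brightest probe.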

Additional observations from a re-analysis of the deposited data

How the results depend on the processing

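The main counts were 3 member probes lower and 5 higher at an unadjusted p under 0.05, with a median difference of -0.01. Lower and higher counts were 6 and 6 after quantile normalization and in the authors' matrix. They were 10 and 2 with median centring (median -0.20, with the median of all probes at -0.21 in place of -0.03). Counts were 5 and 7 with normexp, 1 and 3 without a filter on dim probes and 5 and 6 by an ordinary t-test. With trend and robust variance they were 5 and 4. They were 1 and 3 with the slide as a block, which rests on the pair sharing a slide. As a random block the slide gave 5 and 6. On the brightest probe per gene they were 2 and 1, beside 9.18% and 6.69% of all genes. The shares of all tested probes, lower and higher, moved as well. They were 10.5% and 5.16% after quantile normalization and in the matrix, 19.3% and 3.02% with median centring, and 10.1% and 5.46% with normexp. Without a filter on dim probes they were 4.27% and 4.47%, and with the slide as a block 5.16% and 4.55%. By an ordinary t-test they were 11.2% and 4.28%. The labels number the replicates but name no pairs, and whether the numbers pair the samples was not settled. Correlations of same-numbered arrays were 0.35, 0.15 and 0.05, and those of other pairs ran from -0.34 to 0.15. The replicate block gave 5 lower and 3 higher, beside 13.6% and 8.35% of all probes. Leaving out single arrays gave 1 to 6 lower, 3 to 7 higher and medians from -0.05 to 0.03. Among all probes it gave 4.06% to 13.7% lower and 3.63% to 11.2% higher. Without labelled db/m replicate 3 the member counts were 1 and 3, and without labelled db/db replicate 2 the lower count was 1. Without labelled db/db replicate 3 the lower count was 6, beside 13% of all probes. In that setting 1 member probe had an adjusted p under 0.05, beside 123 of all 29890 probes. A pair of arrays, labelled db/m replicate 2 with labelled db/db replicate 3, was also left out, a choice made after seeing the data. This gave 5 and 10 (partner genes 8 and 8), beside 16.5% and 14.6% of all probes. RefSeq probes alone, also chosen then, gave 3 and 3, beside 2530 and 878 of all 19674 such probes.

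Partner genes were 6 lower and 2 higher. The lower count was 12 with median centring (0 higher), 3 with normexp, 3 without a filter and 3 when the slide was a block. It was 10 by an ordinary t-test, and the higher count was 1 after quantile normalization and in the matrix. Leaving out single arrays gave 1 to 7 lower, with 1 without labelled db/m replicate 3 or labelled db/db replicate 2, and 1 to 7 higher, with 7 without labelled db/m replicate 2. The Ift27 probe of AK044278 ranged from 0.72 to 1.05 and had an unadjusted p under 0.05 in all 19 alternatives, and the Lztfl1 probe ranged from 0.28 with normexp to 1.11 in 18. The cause of these changes was not tested. Dim probes limit what the arrays can show, as for Lztfl1 and Kif17.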
